A study of Caenorhabditis elegans with 2 samples.

Results

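The peaks described here are the 254 autosomal peaks of tagged F57A8.1 whose summit lay within 250 bp of a tRNA gene. They were chosen by position alone, with no cut on signal beyond that of the list. They were taken from the list that the authors called on both replicates pooled, which held 30000 peaks, 23459 of them on the 5 autosomes. Its lowest signal was 25.8. The list of each replicate also held 30000 peaks, and what set this equal length was not examined. A gene without a peak, or a peak without a match, is thus one with no summit among the 30000 of a list. The peaks lay at 245 of the 336 tRNA genes that the Ensembl annotation gives on chromosomes I to V. Chromosome I held 44 of them, II held 47, III held 54, IV held 51 and V held 58.

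Sequencing of chromatin immunoprecipitates (ChIP-seq) was applied to whole Caenorhabditis elegans of strain OP757. These worms carry the unc-119(tm4063) mutation, a working unc-119(+) copy and a transgene for F57A8.1 fused at its C terminus to TY1, EGFP and 3xFLAG, and the precipitation used an antibody to GFP. Both samples were young adults of both sexes, aged 65 hours and synchronised as starved L1 larvae after bleaching, and they are numbered as biological replicates 1 and 2 of a single group. Sonicated fragments measured 200 to 800 bp. The promoter that drives the fusion is not given in the sources used here. Whole worms were used, so a site occupied in a few cells and a site occupied weakly in all of them cannot be told apart. Peaks of untagged worms were not analysed here, and whether tRNA genes give peaks without the tagged protein was not tested.

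Transfer RNA genes are short genes read by RNA polymerase III. Their promoter lies inside the gene: the A box near the start and the B box further in are bound by the factor TFIIIC, which brings TFIIIB to the DNA just upstream, and a run of T after the gene stops the polymerase. Worms carry many copies of most tRNA genes, often with the same sequence, and many lie inside introns of protein-coding genes. RefSeq names the product of F57A8.1 as the protein TSSC4, whose human counterpart takes part in assembling a small nuclear ribonucleoprotein of the spliceosome.

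Sequences of 6 tRNA genes with a high peak and of 3 tRNA genes with no peak are shown because both classes match the same B box pattern. Each run gives 40 bases upstream, the gene and 20 bases downstream, 5′ to 3′ on the strand of the tRNA, from the RefSeq copy of the ce11 genome (WBcel235). Capitals mark matches to the A box core TGGCNNAG (back to back in the Thr genes), the B box GTTCNANNC, and the first TTTT after the gene end. The A box letters were searched over the whole gene, so a marked stretch need not lie at the place of the A box. In T28C12.t1 it lies where the second stretch of the Thr genes does. The genes with a peak are F44A2.t1 (alanine, chrV:9318162-9318293, + strand), W02G9.t1 (threonine, chrV:2664647-2664778, − strand), T28C12.t1 (cysteine, chrV:6335358-6335489, + strand), F57F5.t1 (isoleucine, chrV:12002136-12002280, + strand), Y39A1A.t1 (threonine, chrIII:10624722-10624853, − strand) and F02H6.t1 (proline, chrIV:14225062-14225193, + strand).
F44A2.t1: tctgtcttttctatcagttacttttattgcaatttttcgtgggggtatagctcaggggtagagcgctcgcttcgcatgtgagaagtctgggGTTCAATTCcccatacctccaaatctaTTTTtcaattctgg
W02G9.t1: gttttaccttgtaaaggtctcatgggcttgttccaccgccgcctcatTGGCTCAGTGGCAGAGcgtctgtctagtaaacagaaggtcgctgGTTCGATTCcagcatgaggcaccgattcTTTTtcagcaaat
T28C12.t1: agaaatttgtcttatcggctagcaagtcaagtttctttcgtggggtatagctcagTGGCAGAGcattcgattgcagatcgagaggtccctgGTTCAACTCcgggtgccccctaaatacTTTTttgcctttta
F57F5.t1: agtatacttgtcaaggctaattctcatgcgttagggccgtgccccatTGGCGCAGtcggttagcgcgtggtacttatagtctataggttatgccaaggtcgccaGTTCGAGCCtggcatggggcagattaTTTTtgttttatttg
Y39A1A.t1: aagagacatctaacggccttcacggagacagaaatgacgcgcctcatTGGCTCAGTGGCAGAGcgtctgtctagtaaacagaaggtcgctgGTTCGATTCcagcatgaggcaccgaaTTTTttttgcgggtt
F02H6.t1: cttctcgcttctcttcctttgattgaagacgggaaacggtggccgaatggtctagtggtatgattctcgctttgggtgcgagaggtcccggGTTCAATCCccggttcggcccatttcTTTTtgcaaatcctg
The genes without a peak are Y38E10A.t1 (alanine, chrII:12678274-12678405, + strand), F36D4.t2 (threonine, chrV:9407020-9407151, − strand) and Y71H2AM.t1 (proline, chrIII:2711671-2711802, + strand), picked after their values were seen as the closest in sequence to a gene above.
Y38E10A.t1: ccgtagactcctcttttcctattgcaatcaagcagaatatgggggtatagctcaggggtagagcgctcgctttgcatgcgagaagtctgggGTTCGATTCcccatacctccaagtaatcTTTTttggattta
F36D4.t2: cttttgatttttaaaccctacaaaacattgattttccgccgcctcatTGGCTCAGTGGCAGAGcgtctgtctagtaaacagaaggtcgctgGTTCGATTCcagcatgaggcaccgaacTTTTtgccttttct
Y71H2AM.t1: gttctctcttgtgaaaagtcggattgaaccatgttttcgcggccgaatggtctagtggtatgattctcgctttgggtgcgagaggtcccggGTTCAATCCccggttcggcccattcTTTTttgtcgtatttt
F36D4.t2 is identical over its 72 bases to W02G9.t1, and Y71H2AM.t1 is identical over its 72 bases to F02H6.t1. Y38E10A.t1 differs from F44A2.t1 at 3 positions, counted from 1 at the 5′ end of the gene, with the base of F44A2.t1 first: C33T, T39C and A56G. All 9 genes hold the B box and a TTTT run after the gene, set off from the gene end by 5 to 7 bases in the 6 genes with a peak and by 4 to 7 bases in the 3 without.

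A pooled summit lay within 250 bp of 245 of 336 autosomal tRNA genes (72.9%, 95% Wilson interval 67.9 to 77.4). The same rule was met by 15.5% of all autosomal positions of a 72 bp span, the median tRNA gene length, and by 16.7% of autosomal protein-coding 5′ ends. Transfer RNA pseudogenes, decayed copies named as such by RefSeq, met it at 40 of 180 autosomal places (22.2%, 16.8 to 28.8), a share far below that of the tRNA genes, with an interval just above those positions and 5′ ends. On the X chromosome the share of tRNA genes was 229 of 276 (83.0%, 78.1 to 86.9); the difference between autosomes and X was not tested. All shares here carry Wilson intervals that cover counting error only. Overlap of intervals is given as a description and is not a test, since shares with overlapping intervals may still differ.

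By chromosome the share ran from 46 of 71 genes on IV (64.8%) and 45 of 66 on I (68.2%) to 55 of 78 on V (70.5%), 52 of 64 on III (81.3%) and 47 of 57 on II (82.5%). The 5 intervals overlapped. A single summit served 213 of the 245 genes, and 32 genes had 2 summits within 250 bp. Conversely, 231 peaks had 1 tRNA gene in reach, 23 had 2 and none had more. Every one of the 254 peaks was 356 bp wide, the usual width in the list.

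**Figure D1:**
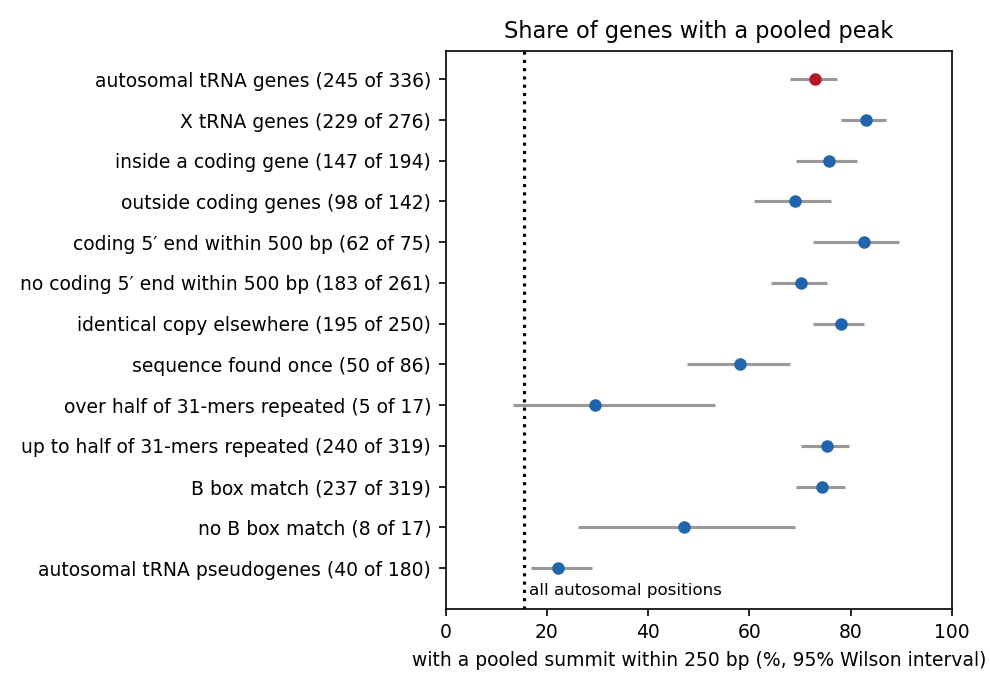
Share of genes with a pooled summit within 250 bp (horizontal axis, percent, with 95% Wilson intervals) for autosomal tRNA genes in red and, in blue, for tRNA genes on X, classes of autosomal tRNA genes and tRNA pseudogenes. The dotted line marks the 15.5% of autosomal positions that meet the same rule; the pseudogenes sit right of it at 22.2% and the tRNA genes far right of it at 72.9%.

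The signal of a peak is the authors' own measure of enrichment and is used here only within a list. Autosomal tRNA peaks had a median pooled signal of 55.8, with quartiles of 39.5 and 74.8 and a range of 25.9 to 187. The 23205 other autosomal peaks had a median of 34.7 and ranged from 25.8 to 571, so the tRNA peaks were high as a group while none was at the very top. The 218 tRNA peaks on X had a median of 57.4 and reached 220.

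By rank in the pooled list, where 1 is the highest signal, tRNA peaks ran from 18 to 29831 with a median of 2271.5, against a median of 15180 for other autosomal peaks. The 1000 highest pooled peaks took in 87 of the 254 tRNA peaks (34.3%, 28.7 to 40.3) and 2.89% of the other autosomal peaks. The 15000 highest took in 216 tRNA peaks (85.0%) and 49.4% of the others. The tRNA peaks therefore spanned nearly the whole list, with most of them in its upper part.

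**Figure D2:**
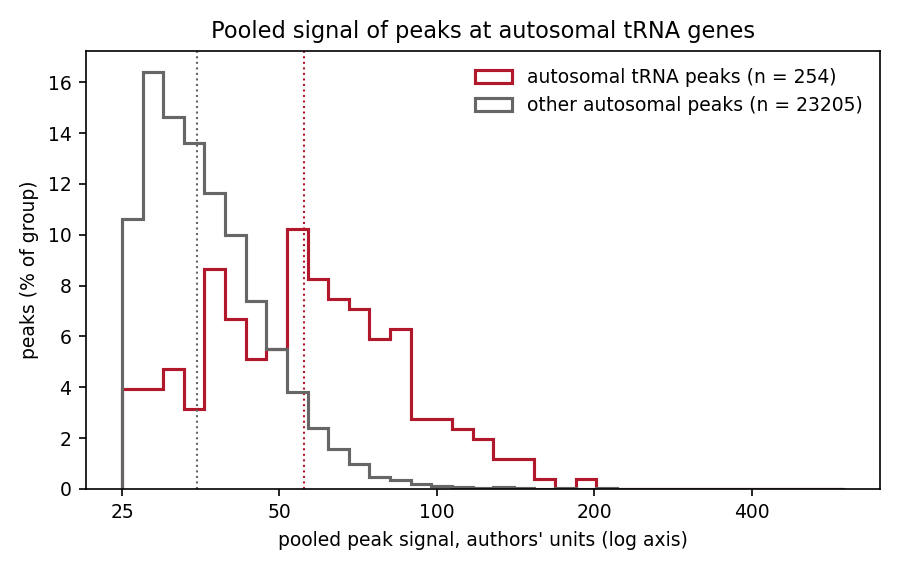
Pooled peak signal (horizontal log axis, authors' units) of the 254 autosomal tRNA peaks in red and the 23205 other autosomal peaks in grey, as percent of each group (vertical axis); dotted lines mark the medians, 55.8 and 34.7. The red curve lies to the right of the grey one but still reaches the low end of the list near 25.9.

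A second list of the authors was cut by the irreproducible discovery rate, a measure of how well peak ranks agree, and holds 295 peaks. They are the 295 pooled peaks with the highest signal, from 85.7 upward, so membership adds no information to the signal. It held 36 of the 254 tRNA peaks (14.2%, 10.4 to 19.0), where 0.899% of all autosomal pooled peaks and 175 of the 23205 other ones (0.754%) were in it. A deposited q of at most 0.05 was reached by 84 tRNA peaks (33.1%, 27.6 to 39.1), against 2.8% of all autosomal pooled peaks. Most tRNA peaks thus did not reach that q.

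The highest signal at an autosomal tRNA gene, 187 (rank 18), was at F44A2.t1, an alanine tRNA gene whose 72-base sequence occurs once in the nuclear genome (chromosome V, 9318202 to 9318273). Its summit at 9318265 fell inside the gene, and 46 bp upstream of the 5′ end of kvs-3, a gene named for voltage-gated potassium channel subunits. Its signal was 81.7 in replicate 1 and 114 in replicate 2, where it ranked 24 and 18, so it was near the top of both lists. F35H8.t1, an arginine gene with 4 identical copies in all (II, 9566241 to 9566313), came next with a pooled signal of 158, from 58.6 in replicate 1 and 93.7 in replicate 2. It lay in no coding gene.

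W02G9.t1, a threonine gene (V, 2664667 to 2664738) in an intron of ndx-2, a Nudix hydrolase family gene, had a pooled signal of 152, with 75.6 in replicate 1 and 67.9 in replicate 2. T28C12.t1, a cysteine gene (V, 6335398 to 6335469) on the strand opposite to its host T28C12.6, had 145 in the pooled list, 83.7 in replicate 1 and 63.1 in replicate 2. F57F5.t1, an isoleucine gene (V, 12002176 to 12002260), had 143 in the pooled list, 75.9 in replicate 1 and 74.7 in replicate 2. The summit of F57F5.t1 was 346 bp upstream of gcy-33, a guanylate cyclase gene, so the strongest sites included tRNA genes inside introns, opposite to a host, and beside a coding 5′ end.

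The other 7 of the 12 highest tRNA peaks had pooled signals between 119 and 138. At the lysine gene C16C8.t1 (II, 3439394 to 3439466), where the threonine gene C16C8.t2 was also in reach, the signal was 138. Y39A1A.t1, a threonine gene in an intron of hpr-9 (a relative of the DNA damage checkpoint gene RAD9) on the opposite strand, had 135. F41A4.t1, an aspartate gene on IV, had 131.

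F02H6.t1, a proline gene in no host, had 124. The threonine gene F52C9.t1 in F52C9.5 had 122, the serine gene ZC455.t1 opposite to ZC455.1 had 121, and the peak at the glutamate gene Y22D7AL.t4 with the methionine gene Y22D7AL.t3 had 119. All 12 were matched in both replicates, and their lowest rank in either was 329, for Y22D7AL.t4 in replicate 1. A threonine gene was the nearest gene of 3 of these 12 peaks and in reach of 4.

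At the low end, C29F4.t1 (the weaker of 2 summits at a proline gene on IV) had a pooled signal of 25.9 and B0491.t2 (alanine, II) had 26.0. F14H8.t1 (the weaker of 2 summits at a valine gene on V, in obr-2, an oxysterol-binding protein family gene) had 26.4. Each was matched in only 1 replicate, with 21.5 in replicate 2 for C29F4.t1, 20.3 in replicate 1 for B0491.t2 and 21.0 in replicate 2 for F14H8.t1. These values lie close to the medians of the whole replicate lists, 19.0 in replicate 1 and 21.9 in replicate 2.

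A replicate summit was counted as matching a pooled one when it lay within 100 bp. Both replicates matched 131 of the 254 tRNA peaks (51.6%, 45.5 to 57.7), where 21.9% of all autosomal pooled peaks and 21.6% of the other ones were matched in both. Replicate 1 alone matched 45 tRNA peaks, replicate 2 alone matched 63, and neither matched 15 (5.91%, against 18.1% of other autosomal peaks). The tRNA peaks were thus matched in both lists more often than autosomal peaks in general; the pooled list was called on these same replicates, so the lists are not independent.

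Pooled signal followed the match. Its median was 69.5 for the 131 peaks matched in both, 42.5 for replicate 1 alone, 39.5 for replicate 2 alone and 33.3 for neither. The 15 peaks with no match were not all weak: T22F3.t3, a proline gene with a second tRNA gene in reach, had a pooled signal of 67.05 and W02G9.t2, a threonine gene, had 59.8 (both named after their values were seen).

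Matched tRNA peaks had a median signal of 30.2 in replicate 1 (n = 176) and 35.3 in replicate 2 (n = 194). Across the 131 peaks matched in both, the log2 signals of the replicates correlated with a Pearson r of 0.441 and a Spearman rho of 0.394. For the 5001 other autosomal peaks matched in both, r was 0.369 and rho 0.210. For the 128 X tRNA peaks matched in both, r was 0.594 and rho 0.587. In each set the points share the control alignment and the choice of peak, and are not independent replicates. Among the 34 of the 131 autosomal tRNA peaks that were in the thresholded list r was -0.0175, and among the 97 outside it r was 0.102. The classes are themselves a split by pooled signal, which draws on both replicates. Such a split lowers r within a class, so these values do not measure how well the replicates agree.

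Of the 131 peaks, 63 ranked higher in replicate 1 and 68 in replicate 2. Each replicate placed a similar number among its own 1000 highest, 51 in replicate 1 and 53 in replicate 2, and 30 were in both. For the 5001 other autosomal peaks matched in both, these numbers were 390, 358 and 128. For the 128 X tRNA peaks they were 57, 63 and 42. The widest rank gaps with replicate 1 ahead were at C12C8.t4 (glycine, chromosome I, inside cbl-1 on the opposite strand), T14B4.t1 (leucine, II) and the outer of 2 summits at Y102E9.t1 (arginine, III). C12C8.t4 had a signal of 45.5 at rank 228 in replicate 1 and 17.0 at rank 27389 in replicate 2, and a pooled signal of 109.

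T14B4.t1 had 34.9 (rank 988) in replicate 1 and 17.0 (rank 27327) in replicate 2. The summit 226 bp from Y102E9.t1 had 40.4 (rank 433) in replicate 1 and 18.6 (rank 22533) in replicate 2. Its other summit, 27 bp from the gene, had a pooled signal of 82.6 and was matched only in replicate 2, with 47.6 (rank 566), so the gene had a high summit in each replicate at different places. Its host on the opposite strand is wdr-4, whose human counterpart is part of a tRNA methyltransferase. In the other direction Y57A10C.t1 (methionine, II) had 14.9 (rank 28138) in replicate 1 and 35.2 (rank 2433) in replicate 2. C06B8.t1 (alanine, V, in the nuclear hormone receptor gene nhr-150) had 14.97 in replicate 1 and 27.9 in replicate 2, and F57G8.t2 (asparagine, V) had 16.2 in replicate 1 and 33.8 in replicate 2. The matched summit at a tRNA gene could therefore rank high in a replicate and near the bottom of the list of the other. Each match is the nearest replicate summit within 100 bp, not the strongest. A higher summit farther off would be missed, so a rank gap need not mean that the replicates differ at the gene.

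**Figure D3:**
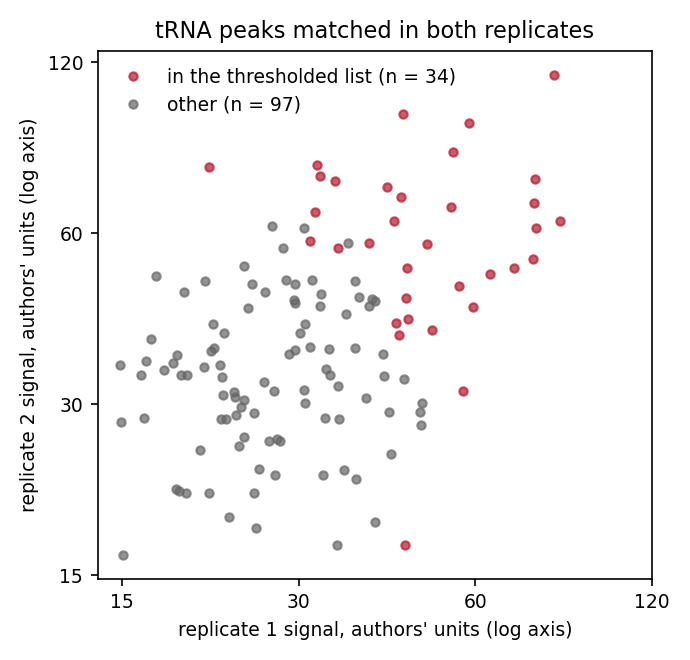
Signal of the 131 autosomal tRNA peaks matched in both replicates, replicate 1 on the horizontal and replicate 2 on the vertical axis (log axes, authors' units); red points are the 34 peaks in the thresholded list and grey points the other 97. The red points lie up and to the right, and within either colour the points show little slope. The colours are a split by pooled signal, so the slope within a colour does not measure agreement.

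Summits lay on or close to the tRNA genes. Of the 254, 109 lay inside the gene (42.9%), 86 upstream of it (33.9%) and 59 downstream (23.2%), and 223 were within 100 bp of its span (87.8%). Measured along the tRNA strand from the 5′ end of the gene, the median summit was at 29 bp, with quartiles of -15.75 and 72 bp. The 36 peaks of the thresholded list had a median of 10.5 bp and the other 218 a median of 34 bp, and on X the median was 23.5 bp.

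Peaks close to the gene had the higher signal. The median was 58.9 for the 223 summits within 100 bp of the span and 38.6 for the 31 farther out. Many of the farther ones were the weaker of 2 summits at a gene. T28C12.t1, for example, had 145 inside and 38.6 at 156 bp. Some genes went the other way, such as M57.t1 with 110 at 124 bp and 39.5 at 3 bp. By place, the median over all 254 was 58.2 upstream, 58.9 inside and 49.2 downstream. Just inside the 250 bp limit lay summits 229 bp from F14H8.t1 with a signal of 26.4, 226 bp from Y102E9.t1 with 38.6 and 215 bp from ZK970.t1 with 39.4. F14H8.t1 and Y102E9.t1 each also had a summit nearer the gene, with 41.6 and 82.6. Just outside the limit the nearest summits were 269 bp from Y113G7B.t1 with 27.9, 287 bp from Y92C3A.t3 with 58.6 and 301 bp from C16D9.t4 with 54.6. Some signals past the limit were thus as high as typical ones within it.

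The offset differed with the strand of the gene: its median was 38 bp for the 125 peaks at + strand genes and 11 bp for the 129 at − strand genes. Measured along the chromosome from the middle of the gene, the median summit lay at 0 bp for + strand and 24.5 bp for − strand genes in the pooled list. In replicate 1 it was -3.5 bp for + and 1 bp for − strand genes, and in replicate 2 it was -0.5 bp for + and 17 bp for − strand genes. The strand gap was thus small in replicate 1 and wider in replicate 2 and the pooled list, and differences of this size are well under the 200 to 800 bp fragment length.

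**Figure D4:**
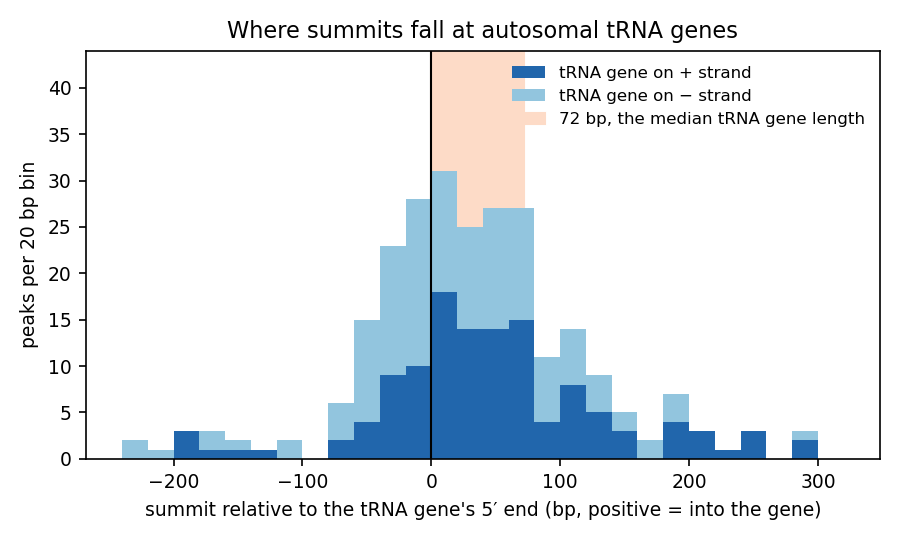
Number of autosomal tRNA peaks per 20 bp (vertical axis) by distance of the summit from the 5′ end of the tRNA gene along its strand (horizontal axis, bp); dark bars are genes on the + strand, light bars on the − strand, and the band is the median gene length of 72 bp. Most summits lie on or next to the gene, with a median of 29 bp.

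All 21 tRNA types on the autosomes (20 amino acids and selenocysteine) had a peak, and 14 had a gene in the thresholded list. Among the 20 types with at least 5 autosomal genes, leucine had the largest share with a peak, 21 of 22 genes (95.5%, 78.2 to 99.2), and histidine the smallest, 5 of 11 (45.5%, 21.27 to 71.99). The intervals of these extremes did not overlap, but they are the extremes of 20 types, and neighbours in the order had overlapping intervals. Arginine (15 of 17), aspartate (13 of 15), lysine (24 of 28), asparagine (12 of 14) and cysteine (5 of 6) came after leucine.

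Proline had a peak at 17 of 22 genes, valine at 13 of 17, alanine at 16 of 21, threonine at 15 of 20 and phenylalanine at 6 of 8. Lower shares were those of isoleucine (11 of 16), methionine (8 of 12), glutamate (12 of 18), tyrosine (7 of 11), serine (13 of 21), glycine (21 of 35), tryptophan (4 of 7) and glutamine (6 of 12). The 2 autosomal tRNA genes for which RefSeq gives no amino acid had none. The share did not simply follow the number of genes, since glycine, with the most autosomal genes, stood below most types.

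Signal was ordered differently from the share. With each peak credited to its nearest gene, the highest median pooled signals were at cysteine (82.5), threonine (72.6), alanine (72.4) and lysine (71.4) genes, and the lowest at histidine (31.4), tyrosine (39.6), glutamine (41.9), valine (42.6) and asparagine (44.04) genes. Counting each gene in reach, threonine had 6 genes with a thresholded peak, lysine 5 and alanine 4. Asparagine, glutamine, histidine, phenylalanine, tyrosine, valine and selenocysteine had none, although asparagine and valine had peaks at most of their genes.

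With a peak that 2 genes share credited to the nearer gene, the strongest peak of each remaining type marks how far the types differ at their upper end. Glycine reached 109 at C12C8.t4, leucine 101 at C14B9.t2, methionine 99.4 at T15B12.t1 (the shared peak of 119 also has the methionine gene Y22D7AL.t3 in reach) and tryptophan 89.2 at B0523.t1, a gene in an intron of fli-1. Valine reached 80.4 at Y73B6BL.t1 (in tyr-6, a tyrosinase family gene, matched only in replicate 2 with 58.3), glutamine 79.6 at Y49E10.t1 (in tat-1, a phospholipid transporter gene), asparagine 76.3 at Y116F11A.t1 and phenylalanine 75.8 at F22B7.t3. Tyrosine reached 64.2 at F56F4.t1 (in pept-3, a peptide transporter gene) and histidine 60.4 at Y40H7A.t2. The upper end of histidine was therefore close to the median of the autosomal tRNA peaks as a whole, 55.8.

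The autosomes hold 1 selenocysteine gene, K11H12.t1 (IV, 658181 to 658266). Its summit lay 146 bp upstream of the gene with a pooled signal of 66.5, and it was matched only in replicate 2, with 34.0. The list of replicate 1 also held a summit within 250 bp of the gene, but over 100 bp from the pooled summit. The selenocysteine gene is read by RNA polymerase III with promoter elements upstream of the gene in vertebrates. Whether the place of this summit relates to such elements was not tested.

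**Figure D5:**
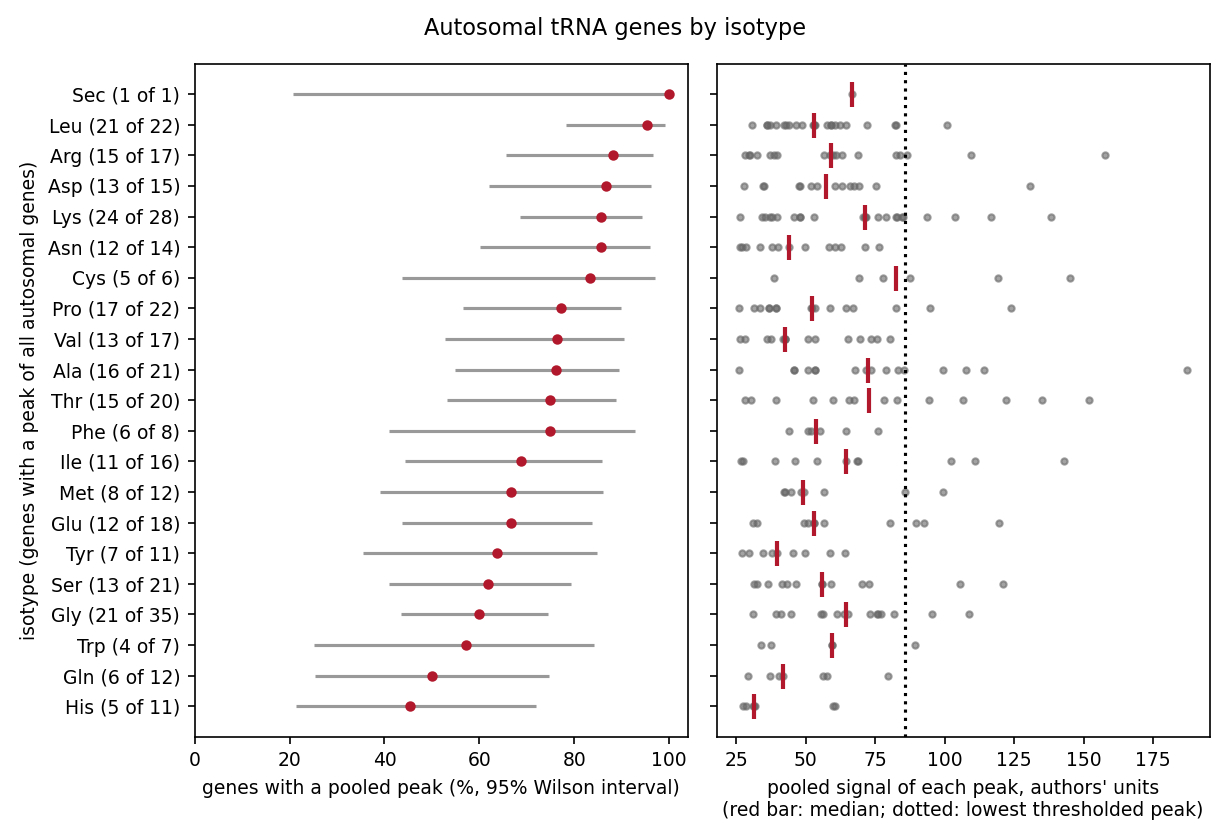
Left, share of autosomal tRNA genes with a pooled peak for each tRNA type (percent, 95% Wilson interval; counts in the labels); right, pooled signal of each peak (authors' units), with the median as a red bar and the lowest thresholded peak as a dotted line. The share falls gradually from leucine at 95.5% to histidine at 45.5%, and the median of every type lies left of the dotted line at 85.7.

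Identical copies of a tRNA gene did not share one fate. The 336 autosomal genes hold 137 distinct sequences, and 43 of these occur at least 2 times on the autosomes. In 12 such families every autosomal gene had a peak, in 4 none had and in 27 some had and some had not. The threonine family of W02G9.t1 and Y39A1A.t1 has 8 autosomal members, of which 7 had peaks with signals from 30.1 to 152 and F36D4.t2 had none. The proline family of F02H6.t1 has 11, of which 8 had peaks from 36.8 to 124 and 3 had none, Y71H2AM.t1 among them. Genes with the same internal promoter letters thus differed both in having a peak and, several-fold, in its signal.

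The nearest pooled summit was 301 bp from F36D4.t2, just past the limit, but 27202 bp from Y71H2AM.t1, which lies within cox-6B and tmem-132 on opposite strands. F36D4.t2 had a summit of replicate 2 within 250 bp and Y71H2AM.t1 had none of either replicate. Y38E10A.t1, the alanine gene with 3 differences from F44A2.t1, was 4833 bp from the nearest pooled summit and had none in either replicate. Its own family of identical genes has 5 autosomal members, 2 of them with a peak.

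A gene whose sequence also occurs elsewhere had a peak in 195 of 250 cases (78.0%, 72.5 to 82.7), and a gene whose sequence occurs once in 50 of 86 (58.1%, 47.6 to 68.0). Median signal was close, 56.6 for peaks at copied genes and 52.5 for peaks at genes found once. In ChIP-seq a read that lies wholly within repeated sequence cannot be placed at a single site by its own sequence. How such reads were treated is not given in the sources used here. None of the windows of 125 bases to either side of a gene middle was identical to that of another tRNA gene, but for 17 genes over 50% of the 31-base stretches in the window occurred again in the nuclear genome. Of those 17 genes 5 had a peak (29.4%, 13.3 to 53.1), against 240 of the other 319 (75.2%, 70.2 to 79.7), and they make up 12 of the 91 genes without a peak. The part of read placement in these absences was not tested.

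The B box matched 237 of the 245 genes with a peak (96.7%, 93.7 to 98.3) and 82 of the 91 without (90.1%, 82.3 to 94.7). A peak was present at 237 of the 319 genes that hold the match (74.3%, 69.2 to 78.8) and at 8 of the 17 that do not (47.1%, 26.2 to 69.0), with intervals that barely miss each other. Of those 17 genes 6 are copies of a single methionine sequence, and 5 of them had a peak. The A box core letters matched, at any place in the gene, 49 of 245 genes with a peak and 17 of 91 without. These counts do not tell which genes hold an A box at its place. TTTT lay within 30 bp past the end of 244 of 245 with a peak and 88 of 91 without. Most genes without a peak thus held the B box and TTTT letters too, and a gene without a match may hold another form of the box.

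In windows reaching 125 bases to either side of a summit, on either strand, the B box letters were found in 217 of 254 tRNA peaks (85.4%) and in 10.5% of the 23205 other autosomal peaks. The A box core letters were found in 22.8% of tRNA windows and 10.7% of the others. In windows of the same length around autosomal tRNA gene centres the shares were 95.8% for the B box and 23.8% for the A box core letters. Both contrasts follow from the choice of peaks at tRNA genes and are given as a description.

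Many of these tRNA genes are guests of other genes: 194 of 336 (57.7%) lay within a protein-coding gene. A peak was present at 147 of these 194 (75.8%, 69.3 to 81.3) and at 98 of the 142 outside coding genes (69.0%, 61.0 to 76.0). On the strand of the host 85 of 115 had a peak (73.9%), and on the opposite strand 62 of 78 (79.5%). The intervals overlapped, and differences between these classes were not tested. Median signal was 58.3 for the 151 peaks at genes with a host, 55.2 where host and tRNA shared the strand and 61.1 where they did not, against 53.2 for the 103 at genes with none.

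A protein-coding 5′ end lay within 500 bp of the summit for 57 of the 254 tRNA peaks (22.4%, 17.7 to 28.0), and for 23.4% of all autosomal pooled peaks, a share so close to the background that it says nothing particular about tRNA peaks. Median distance was 1341 bp for tRNA peaks and 1330 bp for other autosomal peaks. Counted from the tRNA genes, a peak was present at 62 of the 75 with a coding 5′ end within 500 bp (82.7%, 72.6 to 89.6) and at 183 of the other 261 (70.1%, 64.3 to 75.3). The intervals overlapped slightly, and the difference was not tested. With no coding 5′ end within 2000 bp, 93 of 138 genes still had a peak (67.4%, 59.2 to 74.6), far above the 15.5% of autosomal positions.

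Of the 62 genes with another tRNA gene within 500 bp, 53 had a peak (85.5%, 74.7 to 92.2), against 192 of the other 274 (70.1%, 64.4 to 75.2), with intervals that overlap slightly. A summit there can count for both genes. Within 125 bases of the gene middle, genes with a peak had a median GC content of 44.6% and genes without one 42.6%. On the + strand 118 of 162 genes had a peak (72.8%) and on the − strand 127 of 174 (73.0%).

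Of the 91 autosomal tRNA genes with no pooled peak, 21 were on I, 10 on II, 12 on III, 25 on IV and 23 on V. For 25 of them (27.5%) the list of replicate 1 held a summit within 250 bp, for 18 (19.8%) the list of replicate 2, and for 6 (6.59%) both lists. None of the 3 lists held one at 54 (59.3%, 49.1 to 68.9). The nearest pooled summit was at a median of 2441 bp, from 269 to 42560 bp, and it was within 500 bp for 15 genes, so most of these genes were well away from any pooled peak. Among all autosomal positions 15.5% had a pooled summit within 250 bp. The like share was not computed for the replicate lists or for 500 bp. These counts therefore do not tell whether the genes had more summits nearby than other places.

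Histidine, glutamine and tryptophan had the largest shares without a peak. The histidine genes Y17G9A.t1 and B0513.t1 (IV, the second opposite to prdh-1) had their nearest pooled summit at 2807 and 12064 bp and none from either replicate. Of the glutamine genes, C36F7.t1 (I) had it at 1721 bp and no replicate summit, and B0228.t1 (II) at 413 bp with a summit in replicate 2. The tryptophan genes F49C5.t1 (II, in nimk-1) and Y37E11AL.t1 (IV) had it at 510 and 11677 bp. Y37E11AL.t1 is 1 of 6 identical autosomal tryptophan genes, 4 of which had a peak.

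Pseudogenes, as decayed copies, give a comparison with sequence derived from tRNA genes. How close their sequence still is, and whether reads can be placed there, was not measured. Median signal was 55.8 at tRNA genes, 35.5 at the 40 pseudogenes and 34.7 at other autosomal peaks. The upper quartile was 74.8 at tRNA genes, 51.6 at pseudogenes and 42.3 at other autosomal peaks, and the highest pseudogene peak reached 135. A thresholded peak lay within 250 bp of 41 of 336 tRNA genes (12.2%, 9.12 to 16.1) and of 5 of 180 pseudogenes (2.78%, 1.19 to 6.34). Among those with a pooled peak this was 41 of 245 tRNA genes and 5 of 40 pseudogenes. Counted by peak, 0.754% of the other autosomal peaks were in the thresholded list. All 40 pseudogenes with a peak were over 500 bp from the middle of any tRNA gene. Pseudogene peaks were thus like other autosomal peaks in median signal, but their upper quartile was higher and some were as high as strong tRNA peaks.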

How the data were processed

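Both samples belong to 1 group, so nothing here is a test between conditions and no p-value was computed; shares carry 95% Wilson intervals. The authors deposited 4 peak lists on ce11, 1 for each replicate, 1 pooled and 1 cut by the irreproducible discovery rate. Per the deposited file descriptions, replicate and pooled peaks were called against a control alignment. The deposited signal is a peak's enrichment in the authors' units, and the deposited −log10 q was used only to count peaks with a q of at most 0.05. Aligner, peak caller, scaling and the nature of the control are not given in the sources consulted, and read depth is unknown.

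Genes came from Ensembl release 115, and tRNA types, pseudogenes and sequence from RefSeq on the same assembly (336 of 336 autosomal tRNA genes matched by WormBase identifier). Python 3.11.15 with pandas 2.3.3, numpy 2.4.6, scipy 1.17.1 and matplotlib 3.10.9 was used. Assignment of summits was checked on simulated positions against bedtools 2.31.1.

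Members, lists and named genes were chosen with earlier results of these data known. Named genes are those of the 12 highest and 3 lowest peaks, the highest peak of each type, the 3 largest rank gaps each way between replicates, and up to 2 genes without a peak from each of the 3 types with the largest share of them; no peak had 3 or more tRNA genes, which would also have been named. Sequences are those of the highest peaks with a single tRNA gene in reach, outside chromosome I and with no identical copy there. The pseudogenes, the split on repeated 31-base stretches, the q limit, the neighbouring tRNA genes and the distance from the gene middle were chosen after seeing the data.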

Additional observations from a re-analysis of the deposited data

How the results depend on the processing

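Each result was recomputed under other distances, lists and classes, and 38 of 53 recomputed values stayed within their intervals, spread or 1.5 times the count. The number of autosomal tRNA peaks, 254, was 223 with summits within 100 bp of the gene, 280 within 500 bp, 216 among the 15000 highest pooled peaks, and 228 to 242 from single replicate lists. With summits within 100 bp the share of autosomal tRNA genes with a peak was 67.9%, against 72.9%, and within 500 bp the gap between the highest and lowest type was 35.5 percentage points, against 50. Among the 15000 highest pooled peaks the share of genes with a peak was 66.1%, of genes within a coding gene 68.6% and of copied genes 70.8%, a match in both replicates was found for 60.6% of peaks, and the gap between types was 77.3 points. What moved each of these values was not tested. The gap between types, 50 points in the full list and 77.3 in the shorter one, depended on the cut by signal. From single replicate lists (without replicate 1 or without replicate 2), the median signal was 27.0 to 33.8 in those lists' own units, the share of copied genes with a peak 72 to 73.2% and the gap between types 40.5 to 47.6 points. Matching replicate summits within 50 bp gave 29.5% of peaks in both and within 250 bp 75.2%, and a coding 5′ end lay within 250 bp of 5.12% of peaks and within 1000 bp of 38.6%. No paired analysis was possible because there is 1 group and the results come from no test. Unknown read depth limits all of this: a gene without a peak may have had too few reads.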
